A study of Mus musculus with 8 samples.

Results

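Border-associated macrophages are the resident macrophages of the brain's outer and vascular borders. They were followed here in hippocampal cells of mice exposed to lead (Pb) around birth and of control mice. A cell was counted as one when at most 20% of its unique molecular identifiers (UMIs, each a tag for 1 captured transcript molecule) came from mitochondrial genes and at least 0.1% came from Mrc1, Pf4, F13a1, Cbr2, Lyve1, Cd163 and Ms4a7 together. The rule took 54 of the 5205 cells that passed the mitochondrial limit (1.04%). Because these 7 genes chose the cells, their levels are given below as a description, without a test.

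The study measured single cells (10x Chromium, which counts UMIs per gene and droplet) from the hippocampus of 8 wild-type a/a mice aged 5 months. In the Pb group, 4 mice (2 of each sex) had dams that drank 32 ppm Pb-acetate from 2 weeks before mating through gestation and lactation, and the pups had Pb-free water once weaned. The control group held 4 mice (2 of each sex) from unexposed dams. Mice are named by group, sex and label number (Pb F1 is exposed female 1). All mice were perfused with saline, and all cells were dissociated with a heated dissociator, frozen and thawed before capture. Per the labels, 1 male and 1 female came from each litter, without saying which, so mice that are treated as independent can share a dam. The p-values measure the spread between these mice or, in the comparison with microglia, the spread of the differences within mice.

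Macrophages at the border live in the meninges, around larger vessels and in the choroid plexus, whereas microglia live in the brain tissue itself. Border macrophages are known for scavenger receptors such as the mannose receptor Mrc1 (CD206) and the haemoglobin receptor Cd163. A fraction of them carries MHC class II molecules, which show peptides to helper T cells. Loading of MHC class II uses the invariant chain Cd74, which blocks the groove until the endosome, and the H2-DM proteins, which exchange its remnant for a peptide.

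The promoters of class II genes are known to share a set of elements, among them the Y box, an inverted CCAAT sequence, and upstream of it the X box. Since the chosen cells are divided below by their MHC class II genes, the 120 bases before the start of 3 of these genes are shown, 5′ to 3′ on the gene's strand, with CCAAT or its reverse complement ATTGG in capitals (sequences from RefSeq, GRCm38.p6).
H2-Aa, chr17:34287824-34287943, minus strand: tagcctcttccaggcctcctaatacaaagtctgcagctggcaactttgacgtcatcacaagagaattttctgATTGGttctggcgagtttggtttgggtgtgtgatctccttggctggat
H2-Eb1, chr17:34305747-34305866, plus strand: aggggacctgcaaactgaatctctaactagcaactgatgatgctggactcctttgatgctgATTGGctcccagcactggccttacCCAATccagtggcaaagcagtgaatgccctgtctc
H2-DMb1, chr17:34153071-34153190, plus strand: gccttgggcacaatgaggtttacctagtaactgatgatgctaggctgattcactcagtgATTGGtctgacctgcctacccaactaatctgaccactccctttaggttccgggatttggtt

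The first ATTGG began 48 bases before the start in H2-Aa, 59 before it in H2-Eb1 and 61 before it in H2-DMb1. H2-Eb1 also held CCAAT 35 bases before its start. CCAAT or ATTGG was in 6994 of 32851 windows of this length (21.3%), so its presence is common among promoters. The longest run that H2-Eb1 and H2-DMb1 shared was 13 bases, AACTGATGATGCT. Their 2 windows hold it by that choice, and no other of the 32851 windows held it on either strand. These matches are letters in a window and do not show that a factor binds there.

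The chosen cells lay in 6 of the 8 mice. Pb F1 held 16 of 1167 kept cells (1.37%), Pb F2 3 of 472 (0.636%), Pb M1 19 of 1089 (1.74%) and Pb M2 0 of 851. Control F1 held 0 of 211 kept cells, control F2 7 of 570 (1.23%), control M1 7 of 369 (1.90%) and control M2 2 of 476 (0.420%). By the limit of 3 cells, a count of 0 allows a share of up to 0.353% in Pb M2 and of up to 1.42% in control F1, and the upper ends of their 95% Wilson intervals were 0.449% and 1.79%. Together 38 cells came from Pb and 16 from control mice. Only Pb F1 and Pb M1 had 10 or more, so the values of the other mice rest on few cells each.

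The chosen cells are high in the summed rule genes by the rule itself, and cells lay close to the threshold on both sides. The summed rule genes were at 0 UMIs in 4589 kept cells (88.2%), and the median chosen cell had 0.579% of its UMIs in them, up to 1.23%. The 3 chosen cells nearest to the threshold had 0.101%, 0.101% and 0.104%, and the 3 cells just outside had 0.0972%, 0.0910% and 0.0682%. Between 0.05% and 0.1% lay 10 cells, and 46 of the 54 chosen cells had UMIs of at least 3 rule genes. Chosen cells held 1795 to 18279 UMIs with a median of 5500.5, against medians of 5168 in microglia (1333 other cells with at least 0.1% of UMIs in P2ry12, P2ry13, Tmem119, Siglech, Gpr34 and Sall1) and 6024 in endothelial cells (2694 cells, by Cldn5, Flt1, Ly6c1, Cdh5, Itm2a and Slco1a4). The table holds 32 cell barcodes that occur in more than 1 library, none of them on a chosen cell.

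Some chosen cells went against the label. Of the 7 chosen cells of control M1, 3 passed through Pf4 (6, 2 and 4 UMIs) with 1 F13a1 UMI each. They also had Ppbp (4, 3 and 5 UMIs), like Pf4 a platelet chemokine, no Csf1r UMI, and 1.33% to 2.59% of UMIs from the endothelial genes. Ppbp was seen in 8 kept cells, all of control M1. A chosen cell of Pb M1 had 2 Pf4 UMIs and no other rule gene, and one of Pb F1 was called a doublet and had 55 UMIs of Cldn5, the endothelial tight junction gene. Results that rest on these 5 doubtful cells are given with and without them, a choice made after the data were seen. Another 5 chosen cells, with 4 to 7 rule genes each, also passed the microglia rule.

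Genes outside the rule marked the chosen cells as macrophages. The 12 genes shared by macrophages and microglia, among them Csf1r, C1qa and Tyrobp, made up 2.47% of the pooled UMIs of all 54 chosen cells, 3.88% in microglia and 0.241% in endothelial cells, and they do not tell border macrophages from microglia. The neutrophil list was at 0 in 43 of 54 cells and lower than in microglia (0.00465% against 0.0202% of pooled UMIs). Of each blood cell list given next, taken alone, most chosen cells had no UMI, though its pooled share was higher than in microglia. The dendritic cell list was at 0 in 46 of 54 cells and made up 0.00830% of pooled UMIs, against 0.00162% in microglia. It reached 0.245% in the highest cell, and 3 of its 7 measured genes were at 0. The T and NK cell list was also at 0 in 46 cells and made up 0.00565% against 0.00129%. It reached 0.259% in the highest cell, and 3 of its 8 measured genes were at 0. The monocyte list was at 0 in 45 cells (0.00631% against 0.00227%), and 5 of its 9 measured genes were at 0. Ccr2, the chemokine receptor of recruited monocytes, had 9 UMIs in 4 cells. Oligodendrocyte genes had 0.576% of pooled UMIs in chosen cells and 0.549% in microglia, and none of the 8 passed the test between these cells given below.

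**Figure D1:**
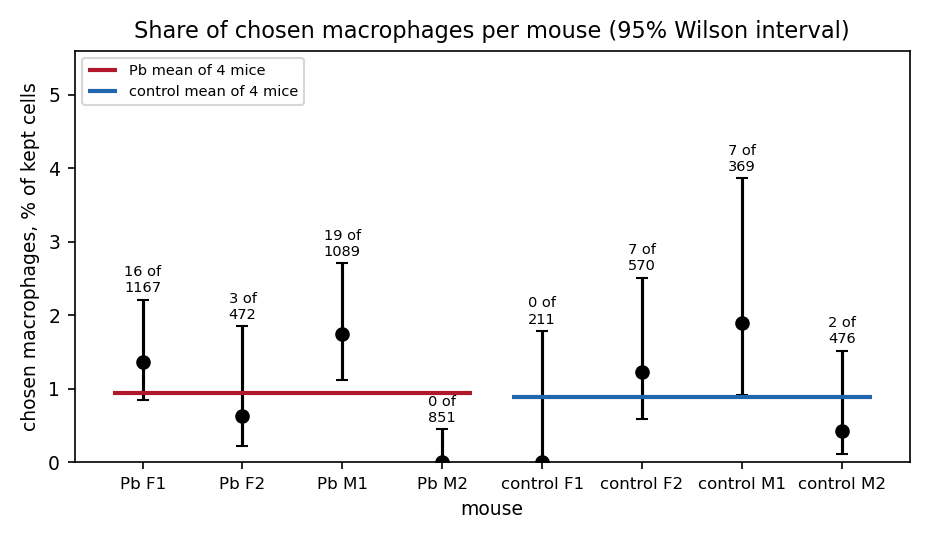
Chosen macrophages as a percentage of kept cells (y axis) in each mouse (x axis), with 95% Wilson intervals, which cover counting error only; the printed fractions are chosen cells of kept cells and the lines are group means. The 2 groups overlap, and each has 1 mouse with no chosen cell.

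The share did not differ between the groups beyond the spread between mice. It averaged 0.938% ± 0.777 (SD, n = 4) over Pb mice and 0.886% ± 0.845 (SD, n = 4) over control mice, a difference of 0.0515 percentage points (exact two-sided permutation test over 70 arrangements, which cannot go below 0.0286, p = 0.914, adjusted over 2 denominators 0.914). Of chosen cells plus microglia it averaged 3.70% ± 3.30 (SD, n = 4) with Pb and 3.23% ± 3.21 (SD, n = 4) without (exact permutation test, p = 0.83, adjusted 0.914). The sign of the difference was set by single mice: without control F1 it was -0.244 percentage points of kept cells, and without control M1 it was 0.388. Without the 5 doubtful cells the shares were 0.893% ± 0.729 and 0.683% ± 0.575 (SD, n = 4 each, exact permutation test, p = 0.629).

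The rule set high levels of its own genes in the chosen cells. It set low levels in microglia and endothelial cells, both taken from the cells that were not chosen. Pf4, a heparin-binding chemokine, was seen in 52 of 54 cells (96.3%) at 2936 CPM (UMIs of the gene per 1000000 UMIs, pooled over cells). Mrc1 was seen in 43 cells (79.6%) at 697 CPM, Ms4a7 in 41 (75.9%) at 545 CPM, F13a1 (a clotting factor subunit) in 38 (70.4%) at 488 CPM, Cbr2 in 31 (57.4%) at 282 CPM, Cd163 in 19 (35.2%) at 236 CPM and Lyve1 (a hyaluronan receptor) in 12 (22.2%) at 96.3 CPM. In endothelial cells, which should lack these genes, Mrc1 was seen in 1.37% of cells and Pf4 in 7.94%. With every cell thinned to 1000 UMIs, F13a1 was in 27.8% of chosen and 0.0742% of endothelial cells, and Pf4 in 85.2% and 1.15%. All 12 cells with Lyve1 also had Mrc1 and Pf4, and all 19 with Cd163 had both. Cd74 and Ccl7, label markers outside the rule, were each seen in 35 cells (64.8%), against 41.5% and 11.5% of microglia and 23.5% and 7.76% of endothelial cells. Thinned, Cd74 was seen in 12.9% and Ccl7 in 3.68% of microglia. Thinning also lowered the shares of chosen cells, so these values are not to be set against the unthinned 64.8%.

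Lyve1 had 19 UMIs in Pb F1 and 10 in Pb M1, and 0 in the 3 cells of Pb F2 and the 16 control cells. Of the 19 in Pb F1, 9 were in the cell called a doublet, and without the 5 doubtful cells Lyve1 had 20 UMIs in all. Cd163 was at 171 CPM in Pb F1, 391 in Pb M1, 432 in control F2 and 0 in control M1, so its groups overlap. The rule kept cells by these genes, so neither difference was tested.

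The chosen cells divided by MHC class II. H2-Aa, H2-Ab1 and H2-Eb1 encode chains of the class II molecules, and with Cd74 they made up 1.09% to 10.2% of UMIs in 16 cells (median 5.52%). In the other 38 cells they made up at most 0.674%, and in 17 of these they were at 0. The dividing value of 1% was set after the values were seen, so both sides are ranges of cells and no test was made between them: 4 cells lay between 1% and 2%, and 3 between 0.2% and 1%. H2-Aa was seen in 20 chosen cells (37.0%), 4.65% of microglia and 8.43% of endothelial cells. Thinned to 1000 UMIs, these shares were 29.6%, 0.825% and 1.86%.

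Cells rich in class II came from all 6 mice with chosen cells. Pb F1 had 4 of 16, Pb F2 1 of 3, Pb M1 6 of 19, control F2 2 of 7, control M1 2 of 7 and control M2 1 of 2. Pooled, they were 11 of 38 Pb cells (28.9%, exact 95% binomial interval 15.4% to 45.9%, counting error only) and 5 of 16 control cells (31.3%, 11.0% to 58.7%). The intervals overlap, and with few cells a mouse no test over mice was made. Elsewhere in the hippocampus, 21 cells that were not chosen had 1% or more class II UMIs, 14 of them with UMIs of the B cell genes Cd79a or Cd79b. Only 1 of 1333 microglia reached 1%.

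**Figure D2:**
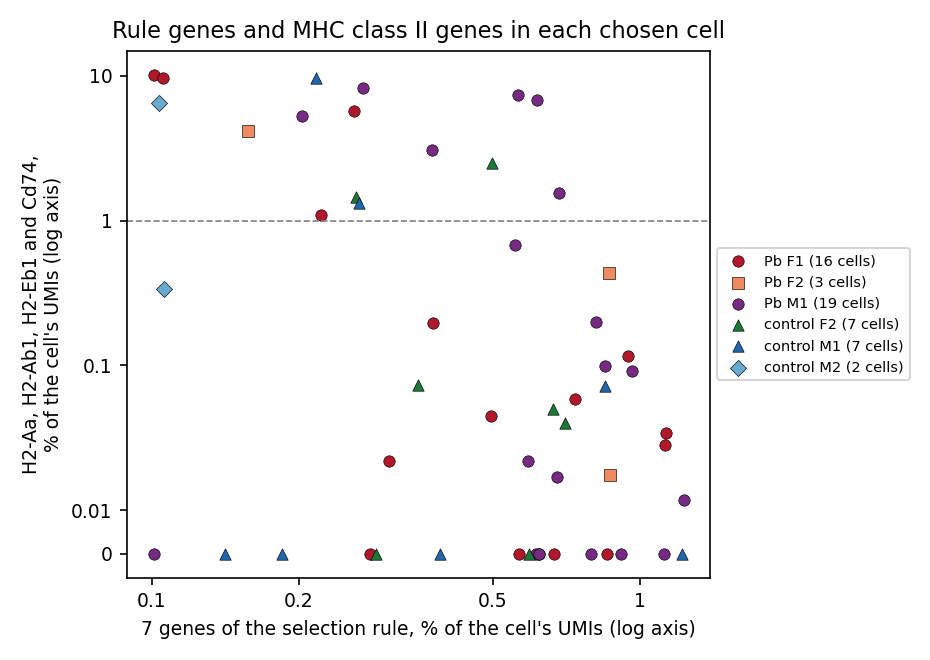
Each point is 1 of the 54 chosen cells, with the summed rule genes (x axis, % of UMIs, log axis) and the summed MHC class II genes (y axis, % of UMIs, log axis with cells at 0 drawn at the axis label 0), by mouse. The 16 cells above the dashed line at 1% are spread over all 6 mice and lie mostly at low rule gene values.

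Class II and the rule genes ran in opposite directions over the cells. The rule genes had a median of 0.261% of UMIs in the class II-rich cells and 0.666% in the others. Over all 54 cells Pearson's r was -0.47 and Spearman's rho -0.38, a description over cells that share libraries and a total. Depth moved with it: median UMIs were 6742.5 in class II-rich and 4492.5 in class II-poor cells, and the part of depth in this pattern was not tested. Of the class II-rich cells 3 lay just over the threshold of the rule, 2 in Pb F1 (0.101% and 0.105%) and 1 in control M2 (0.104%), and cells of their kind with fewer rule UMIs would not be counted.

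Single genes with large ratios between these ranges of cells, named after their values were seen, are given next, first those higher in the class II-poor cells. Ccl24 (eotaxin-2, which draws eosinophils) had 136 UMIs in 23 of 38 class II-poor cells and 1 UMI in the 16 class II-rich cells, a ratio of 84.7 (95% counting interval 14.9 to 3368). Folr2, a folate receptor, had 95 against 3 UMIs (19.7-fold, 6.54 to 97.3). Stab1, a scavenger receptor, was at 1282 against 199 CPM, and Vcam1, an adhesion molecule, at 808 against 95.2 CPM. Cd163 was at 345 against 60.6 CPM and Mrc1 at 932 against 320 CPM, both rule genes. The rule genes also ran against class II over the cells, as given above. P2rx7, an ATP-gated channel, had 74 against 4 UMIs, and Clec10a, a galactose-binding lectin, 36 against 2 (11.2-fold, 2.88 to 96.1).

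Several genes were seen in class II-poor cells alone. Cfp (properdin, of the complement pathway) had 41 UMIs in 18 cells, at least 8.51-fold higher than the 3 UMIs that the class II-rich cells together could have missed. Gpx3, an extracellular glutathione peroxidase, had 34 UMIs in 18 cells (at least 7.05-fold) and Tslp, an epithelial-type cytokine, 29 UMIs in 14 cells (at least 6.02-fold). Pla2g2d, a secreted phospholipase, had 21 UMIs in 13 cells (at least 4.36-fold). Lyve1, a gene of the rule that chose the cells, had 29 UMIs in 12 cells. Without the 5 doubtful cells these genes had 41 (Cfp), 33 (Gpx3), 29 (Tslp), 20 (Lyve1) and 20 (Pla2g2d) UMIs in 33 class II-poor cells, and Ccl24 had 133.

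Other genes were higher in the class II-rich cells. H2-DMa, which helps to load peptides, had 80 UMIs against 13 (9.89-fold, 5.47 to 19.4) and H2-DMb1 68 against 14 (7.80-fold). Cxcl2, a neutrophil chemokine, was at 6855 against 1503 CPM and Cd52, a surface glycoprotein of leukocytes, at 995 against 210 CPM. Cx3cr1, the fractalkine receptor, was at 493 against 108 CPM. By mouse, Cx3cr1 was at 758 against 104 CPM in Pb F1 but at 203 against 139 CPM in Pb M1. Fgl2 had 27 against 5 UMIs and Il1b was at 2519 against 1169 CPM. Tnip3 had 27 UMIs in 5 class II-rich cells and none in the others (at least 14.5-fold), so it rested on few cells. All 9 Ccr2 UMIs were in class II-rich cells.

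**Figure D3:**
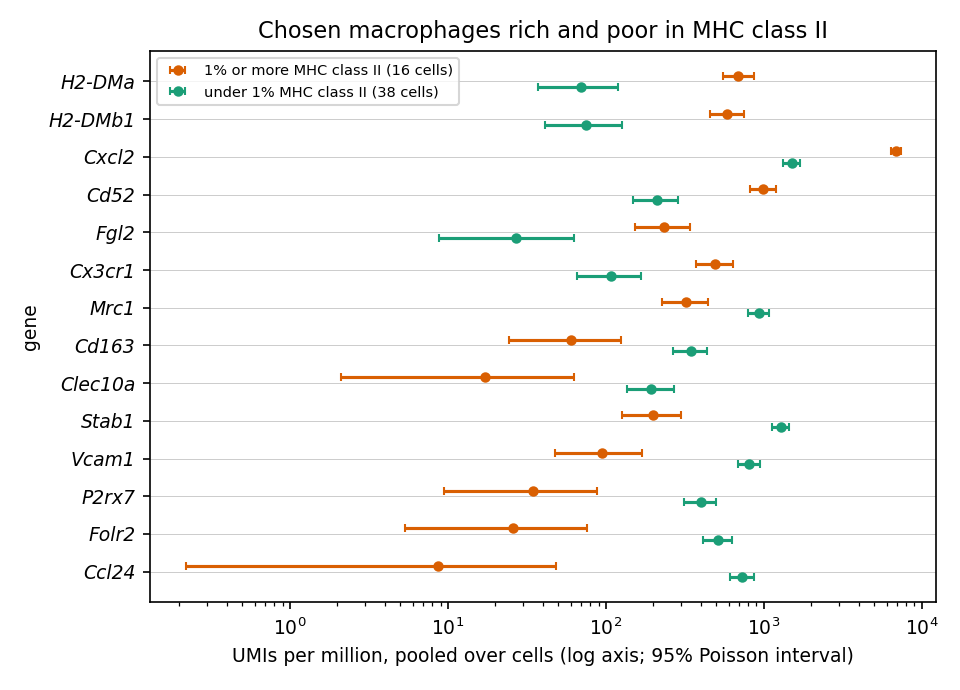
Genes (y axis) in the 16 chosen cells with 1% or more of UMIs from MHC class II genes and in the 38 cells with less (CPM pooled over cells, log axis; bars are 95% Poisson intervals, counting error only). H2-DMa to Cx3cr1 are higher in the class II-rich cells, and Mrc1 to Ccl24 in the class II-poor cells.

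Against microglia of the same mice, the chosen macrophages differed in many genes. UMIs were summed per mouse and cell type in the 4 mice with at least 5 chosen cells (Pb F1, Pb M1, control F2 and control M1). Fold changes are log2 values of chosen macrophages over microglia from edgeR's quasi-likelihood test with the mouse as a block, and an adjusted p (Benjamini-Hochberg) under 0.05 is the threshold. Of 3739 genes tested, 280 were higher in the macrophages (7.49%) and 292 lower (7.81%), with a median over all genes of -0.04. The 7 genes of the rule and the 6 that chose microglia were left out of the test. Without the 5 doubtful cells 290 were higher and 295 lower of 3682 genes, and without Pb M1, the mouse with most chosen cells, 175 and 192 of 3831. Genes below are counted against those shares of 7.49% and 7.81%.

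Genes of antigen presentation were among the largest rises. In the MHC class II list 5 of 8 tested genes were higher and 1 lower (median 3.52). Cd74 was at 10698 CPM in Pb F1, 9953 in Pb M1, 4551 in control F2 and 10357 in control M1, and at 252, 342, 119 and 122 CPM in their microglia (log2 fold change 5.50, SE 0.24, adjusted p = 1.4e-12). Every mouse's macrophages lay above every mouse's microglia for Cd74, and control F2 was the lowest. H2-Aa was at 3107, 3365, 819 and 3180 CPM in the macrophages and at 10.1, 55.8, 12.7 and 9.04 CPM in microglia (7.02, SE 0.36, adjusted p = 6.9e-12). H2-Eb1 rose by 6.23, H2-Ab1 by 6.01 and H2-DMb1 by 1.54, while H2-DMa at 0.72 did not pass (adjusted p = 0.12). H2-Oa, a subunit of the H2-DM antagonist, was the gene that fell, with 0 UMIs in these macrophages and 287 in microglia (at least 5.40-fold lower against a floor of 3 UMIs over the macrophages). With H2-Oa at that bound the list's median was also 3.52. All these values pool class II-rich and class II-poor cells. With the class II-poor cells alone, 0 of 6 tested class II genes were higher and 2 lower (median -0.10), though low class II chose those cells. The list made up 0.0964% of the pooled UMIs of class II-poor cells, against 0.0739% in microglia.

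**Figure D4:**
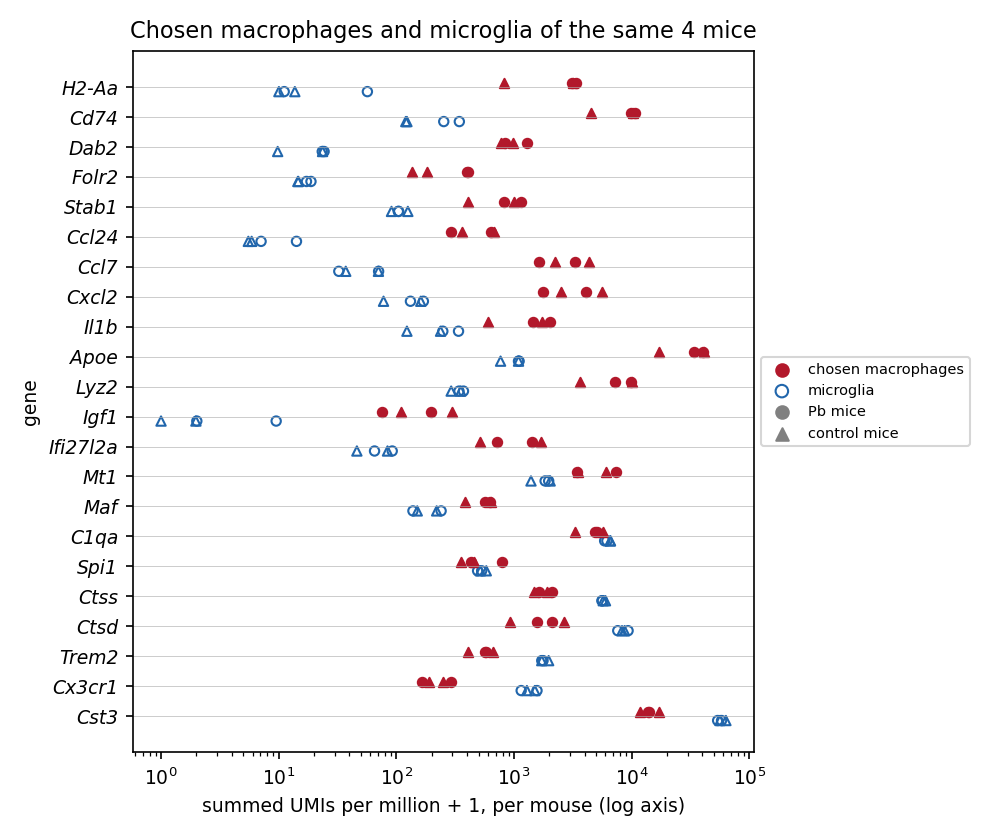
CPM of summed UMIs plus 1 (x axis, log axis) of named genes (y axis) in the chosen macrophages (filled) and microglia (open) of the same 4 mice (circles Pb, triangles control). The symbols of the 2 cell types do not overlap for H2-Aa, Cd74, Dab2, Apoe or Ccl7, whereas those of C1qa and Spi1 lie close together.

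Scavenger and endocytic receptors rose together, 8 of 9 tested and none fell (median 4.32). Dab2, an adaptor of clathrin uptake, was at 843, 1302, 774 and 979 CPM in Pb F1, Pb M1, control F2 and control M1 and at 23.3, 22.5, 8.81 and 22.6 CPM in microglia (5.71, SE 0.27, adjusted p = 2.2e-12). All 4 macrophage values lay above all microglia values. Clec10a had 33 UMIs in the macrophages and 2 in microglia, a 293-fold ratio of pooled CPM (95% counting interval 74.8 to 2517). Clec4n (7.40), a C-type lectin for fungal sugars, and Cd36 (7.01), a receptor for oxidised lipids, had 4 UMIs each in microglia. Folr2 rose by 4.32, Stab1 by 3.09, Fcgrt, the neonatal Fc receptor, by 1.99 and Ap2a2, a clathrin adaptor subunit, by 1.80. Lrp1, at -0.38, did not pass.

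Among chemokine ligands, 7 of 13 tested rose and 2 fell (median 1.42). Ccl7, which attracts monocytes, was at 1623 CPM in Pb F1, 3332 in Pb M1, 2230 in control F2 and 4322 in control M1, against 31.5, 69.7, 69.5 and 36.2 CPM in microglia (5.77, SE 0.27, adjusted p = 2.1e-12). Pb and control values overlap within each cell type. Ccl24 (5.93), Cxcl1 (5.12), Cxcl2 (4.61), Ccl2 (2.81), Cxcl16 (1.54) and Ccl12 (1.42) also rose. Ccl3 (-1.20, adjusted p = 0.00070) and Ccl4 (-0.73, adjusted p = 0.031), both inflammatory chemokines, were lower than in microglia. Without the 5 doubtful cells 7 rose and 1 fell.

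Inflammatory genes were mixed, with 3 of 11 higher and 4 lower. Il1b, the secreted interleukin, rose by 2.66, Cd14, the co-receptor for bacterial lipopolysaccharide, by 2.58 and Tlr2 by 1.07. Il1a (315 against 1361 CPM, pooled over the 4 mice), Nfkbia (-1.29), Tnf (-1.22) and Tnfaip3 (-1.18) fell. Of the immediate early genes 7 of 18 fell and none rose, among them Ier5 (-1.33), Egr1 (-1.05) and Jun (-1.05). Of 18 heat shock genes 2 fell, Hspd1 (-1.09) and Hsp90aa1 (-0.84), against 7.81% of all genes tested. DESeq2 and limma-voom each called 1 of the 18 lower. With the class II-poor cells alone 0 were lower and 1 was higher, so this count gives no result about the list.

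Lipid and lysosome genes went both ways, 7 of 15 up and 5 down. Apoe, the lipid carrier, was at 40177, 33809, 40983 and 17098 CPM in the macrophages of Pb F1, Pb M1, control F2 and control M1 and at 1105, 1092, 1093 and 769 CPM in their microglia (5.02, SE 0.21, adjusted p = 1.0e-12). Control M1, whose 7 cells include 3 doubtful ones, was the lowest of the 4 macrophage values. Lyz2, lysozyme, rose by 4.49, Axl, a receptor for dying cells, by 2.69 and Ctsc, a cathepsin, by 1.96. Ctsd (-2.22), another cathepsin, Cd9 (-1.78) and Trem2 (-1.63), a lipid-sensing receptor, fell.

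Interferon-response and MHC class I genes were higher in 8 of 12 and lower in none (median 1.89), led by Ifi27l2a (3.93), Rsad2 (3.53), Ifitm2 (2.91) and Ifitm3 (2.42). Rsad2 did not pass the count filter of the fit of Pb against control given below, which kept 8 genes of this list. Its rise can therefore rest on few mice. Of growth factor and matrix genes 6 of 13 rose and 1 fell: Igf1 (5.72), a growth factor for neurons and glia, Tgfbi (3.83), Igfbp4 (2.85) and Gas6 (1.97), the Axl ligand, were higher, and Tgfb1 (-1.05) was lower. Among Fc and complement genes 3 of 10 rose, Cfp (4.47), Fcgr2b (1.82), the inhibitory Fc receptor, and C5ar1 (1.19), and 2 fell, Itgb2 (-2.39) and Itgam (-1.53), the chains of complement receptor 3.

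Metal and iron genes were higher in the macrophages in part. The metallothioneins, small proteins that bind zinc, copper and other metals, rose: Mt2 by 2.06 (SE 0.27, adjusted p = 7.9e-06) and Mt1 by 1.49 (SE 0.21, adjusted p = 2.0e-05), 2 of 5 genes tested in their list. Mt1 was at 3406 CPM in Pb F1, 7315 in Pb M1, 6121 in control F2 and 3507 in control M1, against 1973, 1840, 2031 and 1395 CPM in microglia. Of 10 iron and heme genes 4 rose and none fell: Cp (4.24), the ferroxidase ceruloplasmin, Blvrb (2.35) and Blvra (1.87), the biliverdin reductases, and Ftl1 (0.63), the ferritin light chain. Hmox1, heme oxygenase, was at -0.10 and did not pass.

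Transcription factors and microglia genes gave the other side. Maf (1.68) and Cebpb (1.01) rose and 6 of 14 fell, among them Cebpa (-2.25), Bhlhe41 (-1.58) and Irf8 (-1.12). Sall3 had 0 UMIs in the macrophages and 347 in microglia. Spi1, the PU.1 factor of all macrophages, was at 0.01 (SE 0.24) and did not pass. Of 10 microglia genes outside the rule 8 fell, including Selplg (-3.34), Olfml3 (-3.22), Sparc (-3.03) and Cst3 (-1.98), whereas Fcrls (1.20) rose. Of the 12 shared macrophage genes 4 fell, among them Cx3cr1 (-2.55), Ctss (-1.64) and Csf1r (-1.07), and 1 rose, Cd68 (0.76). The complement genes C1qa (-0.37), C1qb (-0.36) and C1qc (-0.34) did not pass.

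Among genes past the threshold with a mean log2 CPM of at least 6 in the cell type where they were higher, the largest rises were of Pla2g2d, Clec10a, Clec4n, H2-Aa, Cd36, Mgl2, Tslp, Ifi203, H2-Eb1, Lilr4b, Stap1, Rab7b, Wfdc17, H2-Ab1 and Ccl24, from 5.93 in Ccl24 upward. Pla2g2d had 21 UMIs in the macrophages and 0 in microglia, so it was at least 124-fold higher against a floor of 3 UMIs over the microglia. Mgl2 (6.71), the paralog next to Clec10a, and Wfdc17 (6.07), a secreted protease inhibitor family member, were higher in all 4 mice. The 10 largest falls above that level were of genes with 0 to 2 UMIs in the macrophages. Over all genes tested 12 were at 0 there, among them H2-Oa, which lay under that level. Csf1, the ligand of the receptor Csf1r, had 0 UMIs in the macrophages and 676 in microglia, so its pooled level was at least 12.7-fold lower against a floor of 3 UMIs over the macrophages. Nav3 was at least 7.16-fold lower, Cdk5r1 at least 5.96-fold, Mlph at least 5.92-fold, Upk1b at least 5.79-fold and Adora3 at least 5.55-fold, and Sall3 at least 6.52-fold. Oaf had 1 UMI against 1045 (58.9-fold lower, 95% counting interval lower end 10.6), St3gal5 1 against 748 (42.2-fold, lower end 7.55) and Slc2a5, a fructose transporter, 2 against 943 (26.6-fold, lower end 7.34).

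Markers of endothelial cells moved with this comparison. Of 5 endothelial genes tested 2 passed, Itm2a (0.98, adjusted p = 0.020) and Ly6c1 (0.71, adjusted p = 0.038), and all 5 were above 0. Their 6 genes made up 0.473% of macrophage UMIs in control M1, 0.309% in Pb F1 and 0.139% to 0.162% in Pb M1 and control F2. Without the 5 doubtful cells none of the 5 passed and 1 was above 0. Without those cells 6 of 8 MHC class II genes rose and 1 fell, and 8 of 9 scavenger genes rose.

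Between Pb and control mice, 1 gene passed within the chosen macrophages. The fit took the 2 Pb and 2 control mice with at least 5 chosen cells, with sex as a covariate, which leaves 1 residual degree of freedom, and tested 1011 genes (1 called, 0.0989%). Ccl5 (chr11:83525778-83530518, minus strand, GRCm38), a chemokine for T cells and monocytes, was lower in Pb (log2 fold change -5.04, SE 0.83, edgeR adjusted p = 0.0094). It had 1 UMI in Pb F1 and 1 in Pb M1, against 19 in control F2 and 16 in control M1.

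The Ccl5 call rested on 4 cells. All 19 UMIs of control F2 came from 1 cell, which also held 38 of the 40 UMIs of the interferon gene Isg15 in that mouse's macrophages. All 16 of control M1 came from the 3 doubtful cells with Ppbp (1, 4 and 11 UMIs). In control M1's other chosen cells Ccl5 was at 0. DESeq2 (adjusted p = 0.31) and limma-voom (adjusted p = 0.98) did not call Ccl5, nor did edgeR without control F2 (adjusted p = 0.61). No gene passed without the 5 doubtful cells over all 6 mice, in a fit of 504 genes that left Ccl5 out. In microglia Ccl5 was at 49.7, 45.6, 17.0 and 14.7 CPM in Pb F1, Pb F2, Pb M1 and Pb M2 and at 88.6, 18.6, 18.1 and 7.69 CPM in control F1, F2, M1 and M2, so the groups overlap there. An unadjusted p under 0.05 was reached by 40 genes in edgeR, 5 in DESeq2 and 34 in voom.

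No gene of any list passed with Pb, and the lists are given by their medians. All 6 MHC class II genes tested were above 0 in Pb (median 0.88 against 0.03 over all genes, none passed). H2-Aa was at 1.02 (SE 0.46) and H2-DMb1 at 1.16 (SE 0.61). By mouse, control F2 alone was low for class II: its H2-Aa was at 819 CPM, while Pb F1 (3107), Pb M1 (3365) and control M1 (3180) lay together. Of 12 heat shock genes 11 were above 0 (median 0.61, none passed) and of 17 immediate early genes 12 were below 0 (median -0.46, none passed). Among heat shock genes Dnajb1 was low in control M1 alone (245 CPM, against 726 in Pb F1, 727 in Pb M1 and 796 in control F2). Hspa8 was highest in control M1 (4349 CPM, against 2979, 3918 and 2662). Without the 5 doubtful cells, over all mice with chosen cells, the heat shock median was 0.51 (10 genes), and in class II-poor cells 0.16 (8 genes).

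Genes of metal handling did not pass. Mt2 was at 545 CPM in Pb F1, 1552 in Pb M1, 1092 in control F2 and 1713 in control M1 (-0.48, SE 0.38). Mt1 was at 0.17 (SE 0.49), Hmox1 at -0.78 (SE 0.62) and Slc40a1, the iron exporter ferroportin, at -0.36 (SE 0.77), and the groups overlap for each. Mt1, Mt2, Hmox1 and Slc40a1 each changed sign when single mice were left out or other cells chosen. Alad and Fech, heme synthesis enzymes that lead inhibits, had 2 and 4 UMIs in all chosen cells, too few to be tested.

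The Pb effect was also compared between macrophages and microglia. No gene of 3739 passed (0% called; 131 at an unadjusted p under 0.05 in edgeR, 36 in DESeq2 and 152 in voom, with 0 past the adjusted threshold in each). The smallest p values belonged to Sdc4 (-2.34, SE 0.49, adjusted p = 0.43), Isg15 (-4.81, SE 1.04, adjusted p = 0.43), Spp1, Gm42418 and Rnaset2b. Sdc4, a heparan sulfate proteoglycan, was at 705 CPM in Pb F1, 1150 in Pb M1, 2640 in control F2 and 1549 in control M1, with both Pb values below both control values. In microglia it was at 231, 170, 142 and 45.2 CPM, the other way round. Isg15 had 40 UMIs in control F2, 38 of them in 1 cell. Both passed without Pb M1 (edgeR adjusted p = 0.039 for Sdc4 and 0.046 for Isg15) and without control M1 (0.0014 and 5.5e-08). Each of these fits left a group with 1 mouse, which was assumed to vary like the others, and without control M1 the control group was control F2 alone, where Isg15 came almost wholly from 1 cell.

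Between the sexes 2 of 1011 genes passed (0.198%). Xist, expressed from the inactive X chromosome, was at 1132 CPM in Pb F1 and 1138 in control F2 and at 0 in both males, as the labels have it. Ttr, the transthyretin of choroid plexus epithelium, was at 4954 and 3436 CPM in the females and at 185 and 54.4 CPM in the males (-5.06, SE 0.50, edgeR adjusted p = 6.2e-06). Ttr moved with the library in other cells as well: in microglia it made up 0.456% and 0.334% of UMIs in Pb F1 and control F2 and 0.0160% and 0.00204% in Pb M1 and control M1. In the macrophages of control M2, a male, it made up 2.07%, and with all 6 mice Ttr did not pass (-0.91, edgeR adjusted p = 0.997).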

How the data were processed

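The deposited table holds counts of UMIs per gene (17143) and cell (5258), which the authors had made with Cell Ranger and Seurat on mm10, per the submitters' processing notes; the sources used here give no versions, cell filters or use of strand. Each cell was assigned to its mouse by column name, and 53 cells over the mitochondrial limit were left out. Doublets were called with Scrublet in scanpy 1.11.5 and kept in the chosen cells (33 of all cells called). Counts were summed per mouse and cell type and tested with edgeR 4.0.16 (TMM, filterByExpr, quasi-likelihood) in R 4.3.3. DESeq2 1.42.0 and limma 3.58.1 (voom) were alternatives, as were other thresholds, filters and cells. The fits were tested on simulated data. CPM is UMIs per 1000000 UMIs of the summed cells. Shares were compared by exact permutation. The members and gene lists were chosen with earlier results of these data known. Named genes were the rule, marker and microglia genes, the 15 largest rises and 10 largest falls against microglia (mean log2 CPM of at least 6 where higher), up to 4 genes per list by size, any gene past the threshold in the exposure and sex fits or else the 5 smallest p, and 6 metal genes. Genes named further came from those lists, and some genes that the rule takes are not reported here. Within the class II division, genes with at least 20 UMIs were ranked by log2 ratio (pseudocount 20 CPM), and the genes named there were chosen after their values were seen. Positions were checked against GENCODE vM21 (GRCm38, the build of mm10). Of 4 class II symbols sought among RefSeq promoters, 3 matched. Near-identical paralogs (Hspa1a and Hspa1b, the H2 genes) and antisense overlaps are uncertain.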

Additional observations from a re-analysis of the deposited data

How the results depend on the processing

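The difference in share of kept cells (0.0515 percentage points) was -0.0957 with a rule threshold of 0.05% and 0.332 with 0.4%. Without cells carrying other types' markers it was 0.644, from 23 chosen cells. That setting also took such cells out of the kept cells, so its mean shares (1.82% with Pb, 1.18% without) have a smaller denominator. Leaving out single mice gave -0.244 to 0.388, below 0 without Pb F1, Pb M1, control F1 or control M2. Of chosen cells plus microglia (0.462) leaving out mice gave -0.859 to 1.79, below 0 without Pb M1 (-0.859), control F1 (-0.616) or control M2 (-0.150). No test passed.

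Against microglia (280 higher, 292 lower) 598 genes were lower with no filter on low counts and 513 with at least 1 UMI in every 2nd sample and 30 in all, where more genes were tested. Without cells carrying other types' markers 183 were higher, from fewer cells. Leaving out mice gave 175 to 332 higher and 192 to 343 lower genes.

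For Pb against control (0 higher, 1 lower), 0 genes were lower with DESeq2, limma-voom, all mice with at least 1 cell, a rule threshold of 0.2%, without cells that pass the microglia rule and without the doubtful cells over all mice, and 4 with no filter. Leaving out mice, in fits with no covariate where the lone sample of a group is assumed to vary like the others, gave 0 to 3 higher and 0 to 4 lower genes. Mt2 (-0.48) was 0.13 over all mice and 0.061 also without the doubtful cells, and Mt1 (0.17) was -0.030 with a 0.2% threshold and -0.031 in class II-poor cells. Leaving out mice gave -0.37 to 0.64 for Mt1, -1.22 to 0.19 for Mt2, -1.60 to 0.34 for Hmox1 and -1.36 to 1.24 for Slc40a1. The cause of these changes was not tested.

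Between the sexes (0 higher in males, 2 lower) voom gave 0 lower, all mice gave 1 lower, no filter gave 5 higher and class II-poor cells gave 1 higher. Leaving out mice gave 1 to 21 higher and 2 to 24 lower genes. The difference of the Pb effect (0 genes) had 4 lower genes with no filter, 4 with the other filter, 1 with all mice and 4 with at least 3 rule genes, and leaving out mice gave 0 to 1 higher and 0 to 6 lower.

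With the replicate number as a block the sign-flip tests of both shares gave exact p of 1.0 and 0.875 (smallest possible 0.125), and the exposure fit over all mice called 0 genes. The labels do not say whether the numbers pair the mice. Same-numbered mice had correlations of deviations of -0.66, -0.27, 0.13 and -0.24, and differently numbered mice had -0.36 to 0.51. These ranges overlap and rest on 4 mice per group, so the correlations cannot decide it. With mice of at least 10 cells the exposure, sex and difference fits were not run, nor were the exposure and difference fits with a 0.4% threshold or without cells of other types' markers and the exposure fit with at least 3 rule genes, as too few mice remained. The 4 mice in the exposure and sex fits had 36788 to 93660 UMIs in chosen cells, and 1011 genes could be tested there.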
